A study of Mus musculus with 2 samples.

Results

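The 36 genes described here encode enzymes that make and recycle purine and pyrimidine nucleotides, supply deoxynucleotides for DNA, and carry folate-bound carbon units. They were listed by symbol after their pathways, with earlier results of these data known, and all 36 have a row among the 25791 gene rows of the deposited table. The samples are RNA-seq of cultured C57/bl6 mouse ESREs (Extensively Self Renewing Erythroblasts), a long-lived culture of dividing erythroid precursors. The expansion sample was taken while the cells proliferated, the maturation sample after they had spent 1 day in maturation. The series title speaks of ESREs from transgenic β-Yac mice, while the sample labels name no transgene, and whether these cells carried it is not stated. The series text also mentions biological duplicates, but the table holds 1 value per gene and group. No difference below therefore has a replicate check, an SD or a p-value, and the sequencing depth is unknown. Values are FPKM, fragments per kilobase of transcript scaled to the size of the library, so levels of different genes can be compared per length.

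Purine rings are built step by step on phosphoribosyl pyrophosphate (PRPP), whereas the pyrimidine ring is made first and then joined to PRPP. Folate enzymes donate carbon units to purines and to thymidylate. Ribonucleotide reductase turns ribonucleotides into deoxynucleotides, and cells that copy their DNA need these in S phase. Early erythroblasts divide rapidly, and folate shortage in people causes megaloblastic anemia, in which erythroid DNA synthesis is impaired.

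Of the 8 enzymes of deoxynucleotide supply, 7 stood higher after 1 day of maturation, beside 25.9% of all rows with at least 1 FPKM in a group. Most enzymes of nucleotide ring synthesis, salvage and folate metabolism stood slightly lower or close to their expansion level. Outside deoxynucleotide supply 20 of 26 genes at that level stood lower, close to the 74.1% of all such rows. Rrm2, the small subunit of ribonucleotide reductase, stood at 25.5 FPKM in expansion against 89.0 in maturation. Dck, Tk1 and Rrm1 stood 2.84-fold, 2.36-fold and 2.09-fold higher in maturation. In the other direction Dctd, a deoxycytidylate deaminase, was at 3.72 and 0.950 FPKM, and Nme2, a nucleoside diphosphate kinase, was at 103.5 and 48.6 FPKM. The summed FPKM of the 36 genes was nearly the same, at 630.7 in expansion and 629.6 in maturation. Within that sum the 8 deoxynucleotide genes took 18.1% in expansion and 36.5% in maturation. In a bulk sample fewer cells of a type and less RNA per cell cannot be told apart.

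Log2 ratios (maturation over expansion) were taken after adding a pseudocount of 1 FPKM, which shrinks the ratios of low genes, and folds are plain ratios of FPKM. A row was called expressed at 1 FPKM or more in at least 1 group, and a difference was counted at 2-fold on the log2 scale, as a description of size. Of the 36 genes 34 were expressed, the exceptions being Ctps2 and Ada. Among the 34, 4 were at least 2-fold higher, beside 3.13% of all 9263 expressed rows, and 2 were at least 2-fold lower, beside 6.70%. All 4 higher genes, Rrm2, Dck, Tk1 and Rrm1, belong to the 8 deoxynucleotide genes. With a pseudocount of 5, 1 gene remained in each direction, Rrm2 at 1.62 and Nme2 at -1.02. The median log2 ratio was -0.22 over the 34 genes and -0.25 over all expressed rows. Ratios centred on that common shift had a median of 0.031 over the 34 genes, with the counts past 2-fold at 4 higher (4.53% of all rows) and 1 lower (3.92%, Dctd). At 1.5-fold the counts were 6 higher, beside 6.30% of all rows, and 9 lower, beside 20.4%. Of the 34, 17 lay above the median of all expressed rows and 17 below it.

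**Figure D1:**
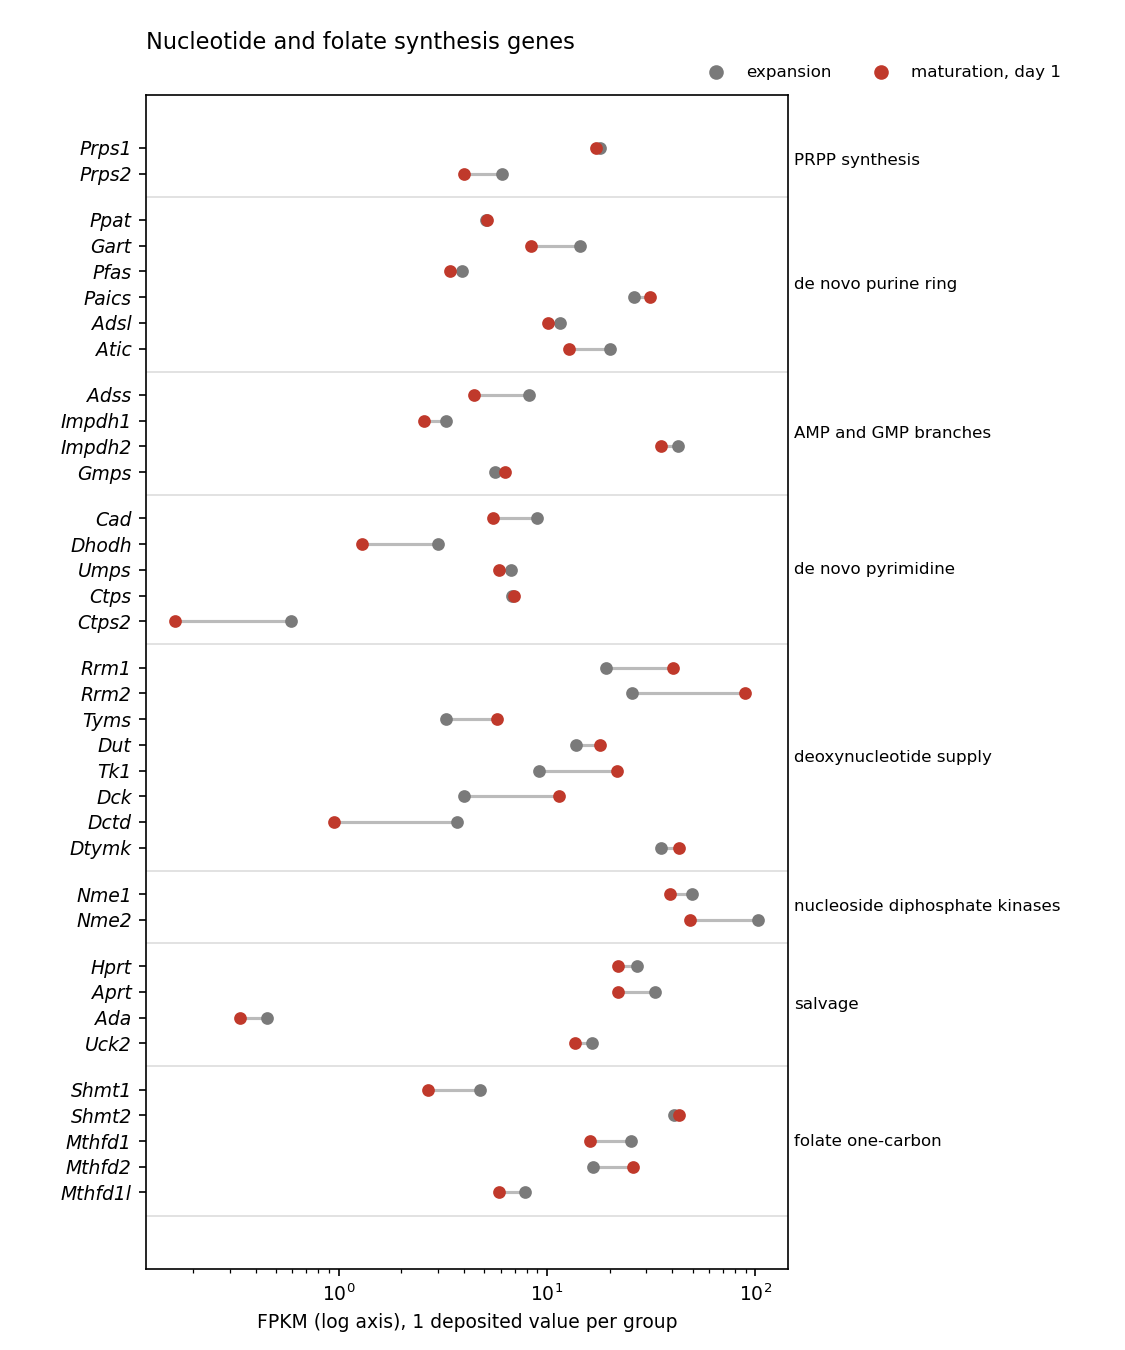
FPKM (log axis) of each of the 36 genes in expansion (grey) and after 1 day of maturation (red), grouped by enzyme role, with 1 deposited value per point and no error. The red points lie to the right for 7 of the 8 deoxynucleotide genes, furthest for Rrm2 (25.5 and 89.0), and to the left for Dctd, Nme2 and most genes of the other roles.

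The starts of the 4 genes that stood at least 2-fold higher are shown because these genes carry the largest differences of the module in that direction. Each line gives the bases before the RefSeq start on GRCm38.p6, read 5′ to 3′ on the gene's strand, up to the first base of any annotated GENCODE exon. Capitals mark matches to TTCCCGC, an E2F-type motif, and to CCAAT, the box bound by NF-Y, on either strand.
Rrm2 (chr12:24708004-24708240, plus strand): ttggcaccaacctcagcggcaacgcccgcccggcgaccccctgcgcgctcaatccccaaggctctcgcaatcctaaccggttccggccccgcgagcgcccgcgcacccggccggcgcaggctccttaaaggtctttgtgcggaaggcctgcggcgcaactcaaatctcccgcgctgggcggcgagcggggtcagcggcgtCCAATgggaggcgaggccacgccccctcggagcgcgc
Rrm1 (chr7:102441445-102441694, plus strand): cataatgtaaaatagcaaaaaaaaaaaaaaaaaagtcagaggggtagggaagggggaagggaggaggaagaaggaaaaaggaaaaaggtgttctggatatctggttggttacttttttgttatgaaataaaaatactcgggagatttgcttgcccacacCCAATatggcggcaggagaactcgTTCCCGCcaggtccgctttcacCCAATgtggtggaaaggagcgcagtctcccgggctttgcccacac
Tk1 (chr11:117826093-117826264, minus strand): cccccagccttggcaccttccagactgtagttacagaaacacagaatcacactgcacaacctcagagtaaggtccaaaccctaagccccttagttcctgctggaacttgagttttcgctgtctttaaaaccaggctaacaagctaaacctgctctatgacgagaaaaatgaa
Dck (chr5:88764763-88764995, plus strand): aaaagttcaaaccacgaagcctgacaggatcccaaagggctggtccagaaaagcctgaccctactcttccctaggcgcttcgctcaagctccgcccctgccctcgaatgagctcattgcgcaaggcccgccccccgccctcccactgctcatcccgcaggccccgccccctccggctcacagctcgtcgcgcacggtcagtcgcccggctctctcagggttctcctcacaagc
Rrm1 held a TTCCCGC match 67 bases before its start and CCAAT matches 91 and 45 bases before it. Rrm2 held a single CCAAT match 50 bases before its start. The Tk1 and Dck stretches held neither motif, which says only that these letters are not there.

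RefSeq promoter windows, from 250 bases before to 50 after the start, were matched for 34 of the 36 genes by symbol, with Pfas and Dhodh left over. The motifs searched on both strands were CACGTG, the E-box bound by MYC family proteins, TTCCCGC and TTGGCGC, both E2F-type, and CCAAT, which was added after the values had been seen. CACGTG was found for 6 of the 34 genes (17.6%), beside 8.09% of all 27025 genes with a window. The 27025 include genes not expressed here, and no share over expressed genes alone was computed for any motif. Those 6 were Atic, Paics, Impdh2, Nme1, Tyms and Dtymk. TTCCCGC was found for 5 genes (14.7%, beside 5.29%), namely Rrm1, Ppat, Mthfd1, Prps1 and Prps2. The Ppat window alone held 3 of these matches. TTGGCGC was found for Adss, Dtymk, Impdh2 and Shmt1 (11.8%, beside 2.85%), and CCAAT for 15 genes (44.1%, beside 41.1%). In Impdh2 the TTGGCGC and CCAAT matches overlap. The genes with a CACGTG match ranged in log2 ratio from -0.60 for Atic to 0.65 for Tyms. A match is a description of the letters and not evidence of binding.

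Ribonucleotide reductase held the highest log2 ratio of the 36 genes, that of Rrm2. The enzyme pairs a large catalytic subunit, Rrm1, with a small radical-bearing subunit, Rrm2 or its relative Rrm2b. Rrm2 lies on chromosome 12 (mm9, 25393119 to 25399011) and stood at 25.5 FPKM in expansion against 89.0 in maturation, a 3.49-fold difference with a log2 ratio of 1.76. It was the 9th of the 36 genes by level in expansion and the 1st in maturation. Its log2 ratio lay at percentile 98.7 of all expressed rows. Genes at other loci hold 12.8% of the 36-base stretches of the Rrm2 transcript, and 3.11% of the 75-base ones. Rrm1, on chromosome 7 (109590209 to 109618285), was at 19.2 and 40.3 FPKM, a log2 ratio of 1.03. Rrm2b, a small subunit known to be induced by p53, was at 0.976 and 1.74 FPKM. The FPKM ratio of Rrm2 to Rrm1 was 1.33 in expansion and 2.21 in maturation, and that of Rrm2 to Rrm2b was 26.1 and 51.1. Rrm2 was thus the predominant small subunit in both groups, per length.

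Of the kinases that salvage deoxynucleosides, Tk1 and Dck stood higher in maturation, and the mitochondrial Tk2 and Dguok did not. Tk1, the cytosolic thymidine kinase of S phase, on chromosome 11 (117676833 to 117701222), stood at 9.19 FPKM in expansion against 21.7 in maturation, a log2 ratio of 1.16. Afmid is listed at the same locus at 0.572 and 0.490 FPKM. Dck, the deoxycytidine kinase, on chromosome 5 (89194038 to 89212302), was at 4.01 and 11.4 FPKM, a log2 ratio of 1.31. Dck was the 29th of the 36 genes by level in expansion and the 18th in maturation. Tk2, the mitochondrial thymidine kinase, was at 1.86 and 0.803 FPKM, lower in maturation. Dguok, the mitochondrial deoxyguanosine kinase, was at 2.12 and 2.13 FPKM.

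Thymidylate enzymes stood higher by smaller amounts. Tyms, thymidylate synthase, which methylates deoxyuridylate with a folate carbon, stood at 3.29 FPKM in expansion against 5.74 in maturation (1.74-fold). Tyms-ps, its processed pseudogene, was listed at 10.6 and 19.2 FPKM, above the gene itself in both groups, and shared 7.67% of the 36-base stretches of the longest Tyms transcript. The split between these rows is therefore uncertain, and their summed FPKM stood 1.79-fold higher in maturation. Dut, the dUTPase that keeps uracil out of DNA, was at 13.9 and 17.9 FPKM (1.29-fold). Dtymk, which phosphorylates thymidylate, was at 35.4 and 43.0 FPKM (1.21-fold).

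Dctd was the exception among the 8. The enzyme deaminates dCMP to dUMP, the substrate of thymidylate synthase. On chromosome 8 (49184446 to 49227021) it stood at 3.72 FPKM in expansion against 0.950 in maturation, 3.92-fold lower, with a log2 ratio of -1.28. Cda, a cytidine deaminase that acts on nucleosides, stood in the opposite direction, at 9.16 and 29.8 FPKM (3.25-fold higher). Dctpp1, which breaks down dCTP and modified forms of it, was at 22.8 and 11.8 FPKM, and Nt5c, a nucleotidase that removes phosphate from deoxynucleotides, was at 14.4 and 9.14 FPKM.

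The deoxynucleotide genes were set beside genes of replication licensing and the replication fork. The 8 deoxynucleotide genes had a median log2 ratio of 0.84, from -1.28 for Dctd to 1.76 for Rrm2, with 7 above 0. The 8 further expressed genes of deoxynucleotide metabolism had a median of -0.38, or -0.14 after centring. Of these 8, 6 lay below 0, beside 74.1% of all expressed rows. The 24 replication genes had a median of 0.77 and all 24 lay above 0, beside 25.9% of all expressed rows. Of these 24, 3 were at least 2-fold higher, beside 3.13% of all rows, and after centring 13 were, beside 4.53%. The 3 include Cdc6, a licensing factor, at 3.49 and 9.90 FPKM, and Orc1, listed as Orc1l, at 1.41 and 4.61 FPKM. Rrm2 had a log2 ratio above that of every one of the 24, whose highest was 1.28. Whether more cells were in S phase was not tested.

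**Figure D2:**
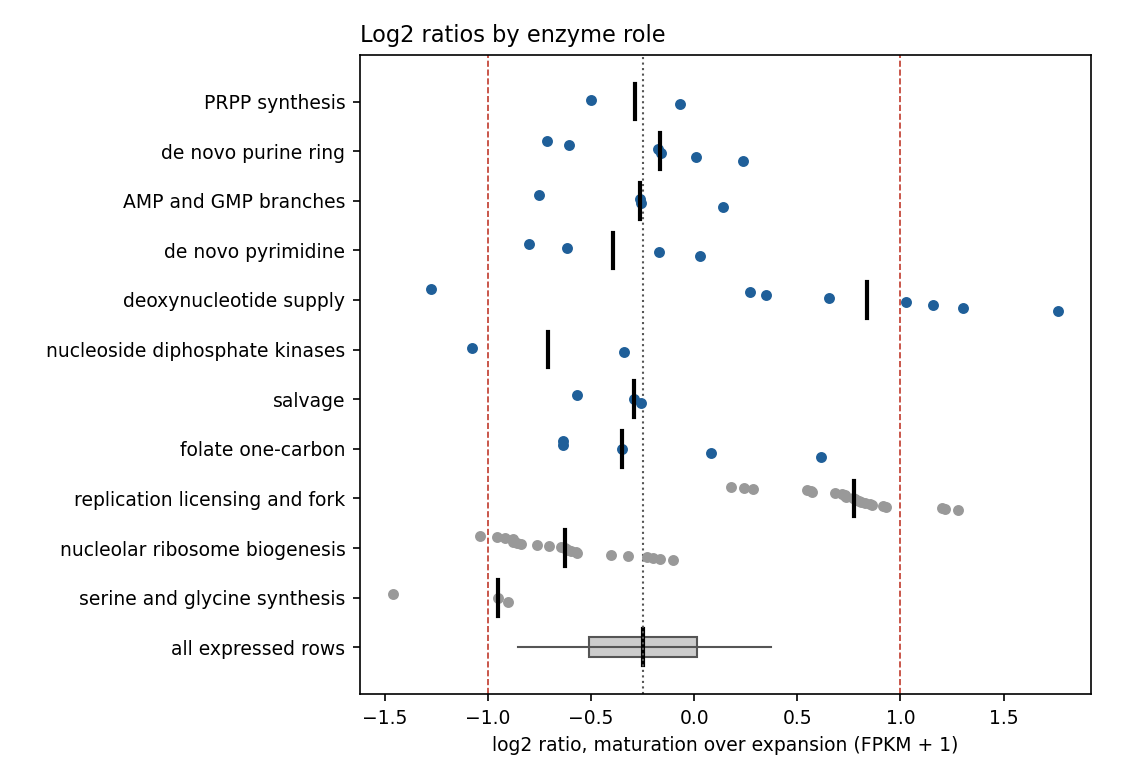
Log2 ratio of maturation over expansion (FPKM + 1) for the expressed genes of each role (blue), of 3 comparison lists (grey points) and of all expressed rows (grey box from the 25th to the 75th percentile, -0.51 to 0.01, with a line from the 10th to the 90th, -0.85 to 0.37). Black bars are medians, the dotted line is the median of all rows (-0.25) and dashed lines mark 2-fold. The deoxynucleotide genes (median 0.84) sit with the replication genes (0.77), apart from Dctd on the far left, while the medians of the other roles lie between -0.71 and -0.17.

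Outside deoxynucleotide supply, 28 genes were listed and 26 expressed. Past 2-fold, 0 of the 26 stood higher, beside 3.13% of all expressed rows, and 1, Nme2, stood lower, beside 6.70%. Of the 26, 20 had a log2 ratio below 0, beside 74.1% of all expressed rows, and their median was -0.28. After centring on the median of all rows this median was -0.029, so it lay close to that of the whole table.

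PRPP synthesis and the purine ring showed mixed small differences. Prps1 and Prps2 encode the synthetases that make PRPP, and were at 18.1 and 17.2 FPKM and at 6.06 and 3.998 FPKM. Prps1 shares 16.1% of its 36-base stretches with Prps1l3, so the level of Prps1 is uncertain to that extent. Prps1l1, a row related by name, was listed at 13.5 and 12.3 FPKM. It was not among the genes found to share 36-base stretches with Prps1. Ppat, the amidotransferase that commits PRPP to purines, stood at 5.10 FPKM in expansion against 5.14 in maturation. Gart, an enzyme with several activities on the ring, was at 14.4 and 8.41 FPKM (1.71-fold lower). Gart shares its listed locus with LOC100503130 at 10.7 and 7.26 FPKM, so the division of reads between these rows is uncertain. Pfas, which adds an amide nitrogen, was at 3.92 and 3.41 FPKM. Paics, which carries out a carboxylase and a synthetase step, was at 26.2 and 31.1 FPKM (1.19-fold higher). Adsl, the adenylosuccinate lyase, was at 11.5 and 10.1 FPKM. Atic, which closes the ring to inosinate, was at 20.02 and 12.8 FPKM (1.56-fold lower). The 6 ring genes had a median log2 ratio of -0.17, which became 0.080 after centring, so no common direction can be given for them. Prps1, Pfas and Adsl lay below 0 as deposited and above 0 after centring, and Prps1 also lay above 0 when summed FPKM without small RNA rows was set equal in both groups.

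Ppat and Paics are listed at the same locus on chromosome 5 (mm9, 77342274 to 77396530). Their RefSeq starts lie 276 bases apart on opposite strands of GRCm38.p6. Both stood at or slightly above their expansion level, while the FPKM ratio of Paics to Ppat was 5.15 in expansion and 6.06 in maturation. Without a statement of strand in the authors' counting, reads from overlapping ends of the 2 genes cannot be told apart.

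The branches from inosinate to AMP and GMP had a median log2 ratio of -0.26, close to that of all rows. Adss, the adenylosuccinate synthetase of the AMP branch, stood at 8.25 FPKM in expansion against 4.49 in maturation (1.84-fold lower). Gmps, the GMP synthetase, was at 5.61 and 6.29 FPKM (1.12-fold higher). Impdh2, the inosinate dehydrogenase of dividing cells, was at 42.7 and 35.5 FPKM, and Impdh1, its isozyme, at 3.27 and 2.57 FPKM. Impdh2 exceeded Impdh1 by 13.1-fold in expansion and 13.8-fold in maturation, so the isozyme balance differed little. A processed pseudogene, Impdh2-ps, shares 76.4% of the 36-base and 69.3% of the 75-base stretches of the Impdh2 transcript, and the level of Impdh2 is uncertain to that extent.

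In pyrimidine synthesis the early enzymes stood lower. Cad, a single protein that carries the first steps, stood at 8.98 FPKM in expansion against 5.50 in maturation (1.63-fold lower). Dhodh, the step at the inner mitochondrial membrane, was at 3.01 and 1.30 FPKM, 2.31-fold lower as a plain ratio, and its log2 ratio of -0.80 became -1.15 with a pseudocount of 0.1. Umps, which makes uridylate, was at 6.72 and 5.87 FPKM, and its log2 ratio of -0.17 became 0.078 after centring. Ctps, the CTP synthetase, was at 6.77 and 6.93 FPKM, and its isozyme Ctps2 at 0.593 and 0.165 FPKM. The FPKM ratio of Ctps to Ctps2 was 11.4 and 42.0, but Ctps2 was below 1 FPKM in both groups.

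Nme1 and Nme2 encode the subunits of the nucleoside diphosphate kinase that makes triphosphates, and held the highest levels of the 36 genes in expansion. Nme2, on chromosome 11 (93811129 to 93817321), stood at 103.5 FPKM in expansion against 48.6 in maturation, 2.13-fold lower with a log2 ratio of -1.08. After centring that ratio was -0.83, within 2-fold. Nme1, next to it (93820239 to 93829835), was at 49.6 and 38.9 FPKM, and the FPKM ratio of Nme2 to Nme1 was 2.09 in expansion and 1.25 in maturation. Copies elsewhere hold 31.6% of the 36-base stretches of the Nme2 transcript, with Gm7730 at 23.7% and Gm5425 at 18.01%. Gm5566, a further processed pseudogene, shares 12.8% of them and was listed at 136.4 and 69.4 FPKM, above Nme2 itself, so the division of reads between these rows is uncertain. Nme3, a relative of the family, stood in the opposite direction at 2.80 and 7.46 FPKM (2.66-fold higher). Nme4, the mitochondrial form, was at 6.39 and 5.22 FPKM, and Nme7 at 1.41 and 1.19 FPKM.

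Salvage enzymes of bases and ribonucleosides stood a little lower. Hprt, which recovers hypoxanthine and guanine, stood at 27.0 FPKM in expansion against 21.9 in maturation. Aprt, which recovers adenine, was at 33.01 and 21.9 FPKM. Uck2, a uridine and cytidine kinase, was at 16.5 and 13.6 FPKM. Ada, the adenosine deaminase whose loss causes severe combined immunodeficiency, was at 0.451 and 0.338 FPKM. The 3 expressed genes of this role had a median of -0.29 as deposited and -0.043 after centring.

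Among folate enzymes, cytosolic Shmt1 and Mthfd1 stood lower in maturation, and mitochondrial Mthfd2 stood higher. Shmt2, the mitochondrial serine hydroxymethyltransferase, stood at 40.5 FPKM in expansion against 43.0 in maturation, and Shmt1, the cytosolic form, at 4.75 and 2.70 FPKM (1.76-fold lower). Mthfd2, a mitochondrial dehydrogenase and cyclohydrolase, was at 16.6 and 25.96 FPKM (1.56-fold higher), while Mthfd1, the cytosolic enzyme with 3 activities, was at 25.5 and 16.1 FPKM (1.59-fold lower). Mthfd1l, the mitochondrial formate-releasing enzyme, did not follow Mthfd2 and was at 7.81 and 5.91 FPKM. The FPKM ratio of Shmt2 to Shmt1 was 8.53 in expansion and 15.9 in maturation. That of Mthfd1 to Mthfd2 was 1.53 and 0.619, so the order of these genes by level was reversed. None of the 5 folate genes passed 2-fold on the log2 scale.

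**Figure D3:**
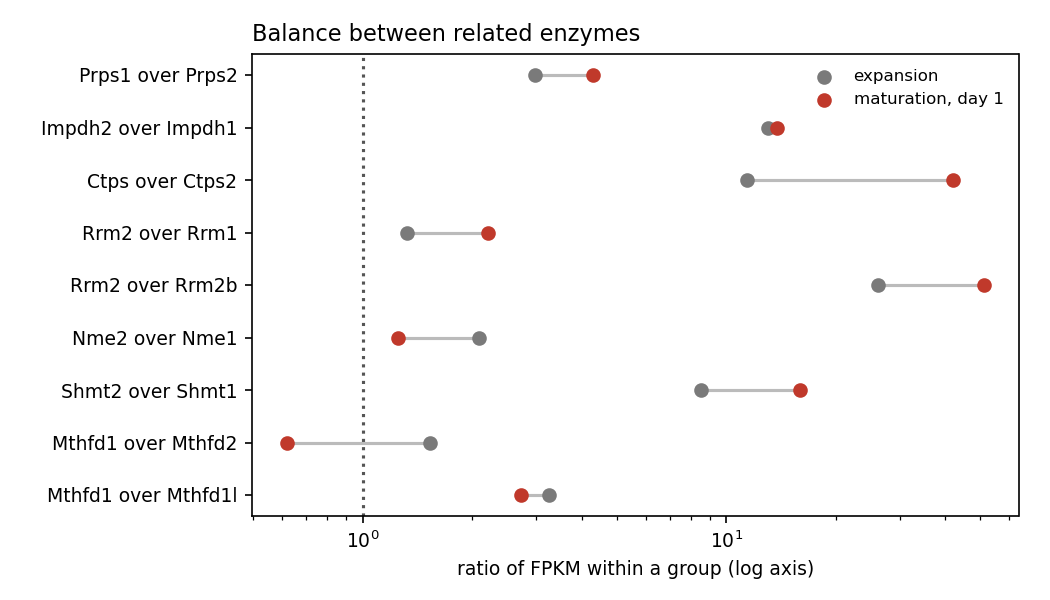
Ratio of FPKM between related enzymes within each group (log axis), in expansion (grey) and after 1 day of maturation (red), with 1 value per point, no error and the dotted line at equal levels. Mthfd1 over Mthfd2 is the pair that crosses equality (1.53 and 0.619), Ctps over Ctps2 differs most (11.4 and 42.0), and Impdh2 over Impdh1 least (13.1 and 13.8).

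Serine is the main source of folate-bound carbon, and its synthesis genes stood lower in maturation. The 3 genes Phgdh, Psat1 and Psph had a median log2 ratio of -0.95. Psat1 stood at 51.7 FPKM in expansion against 18.2 in maturation, and Psph at 11.8 and 5.60 FPKM. Genes of ribosome biogenesis, which depends on nucleotides for ribosomal RNA, had a median of -0.63 over 23 genes. All 23 lay below 0, beside 74.1% of all expressed rows. After centring the median was -0.38, and 4 of the 23 lay above the median of all rows. The lowest log2 ratios of the 23 were those of Rrp9, at 7.85 and 3.31 FPKM, and Rrs1, at 11.3 and 5.36 FPKM.

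A further 64 genes of the same pathways were looked up, of which 42 were expressed. Past 2-fold, 4 of the 42 stood higher, beside 3.13% of all expressed rows, and 1 lower, beside 6.70%. The median of the 42 log2 ratios was -0.21, close to the -0.25 of all rows, and 0.033 after centring. The 4 higher genes were Cda, Gda, Nme3 and Ampd3. Gda, a guanine deaminase, stood at 4.78 FPKM in expansion against 12.3 in maturation (2.57-fold). Ampd3, the AMP deaminase of red cells, was at 2.27 and 6.16 FPKM (2.71-fold). The 1 gene past 2-fold lower on the log2 scale was Prpsap1, a protein that associates with PRPP synthetase, at 9.33 and 3.06 FPKM. As a plain ratio Prpsap1 was 3.05-fold lower. Upp1, a uridine phosphorylase, was at 1.22 and 0.135 FPKM, 9.05-fold lower as a plain ratio. With the pseudocount its log2 ratio was -0.97, so it was not counted. Other genes, Gcsh and Tk2 among them, also passed 2-fold lower only as plain ratios. Pnp, the purine nucleoside phosphorylase, listed as Pnp1, was at 17.7 and 20.4 FPKM. Pnp2, listed next to it on chromosome 14, was at 31.7 and 36.3 FPKM, above Pnp1 in both groups. Stretches shared between these rows were not counted. Nt5c3, a pyrimidine nucleotidase whose loss causes hemolytic anemia, was at 19.6 and 12.3 FPKM.

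Of the 9 other expressed folate genes, 8 had a log2 ratio below 0, beside 74.1% of all expressed rows, and their median was -0.50 as deposited and -0.26 after centring. Slc19a1, the reduced folate carrier, stood at 6.67 FPKM in expansion against 3.74 in maturation. Fpgs, which adds glutamates that hold folate in the cell, was at 4.83 and 2.37 FPKM. Gcsh, a part of the glycine cleavage system, was at 6.84 and 2.99 FPKM. Gldc, its decarboxylase, was at 0.0138 and 0.0198 FPKM.

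**Figure D4:**
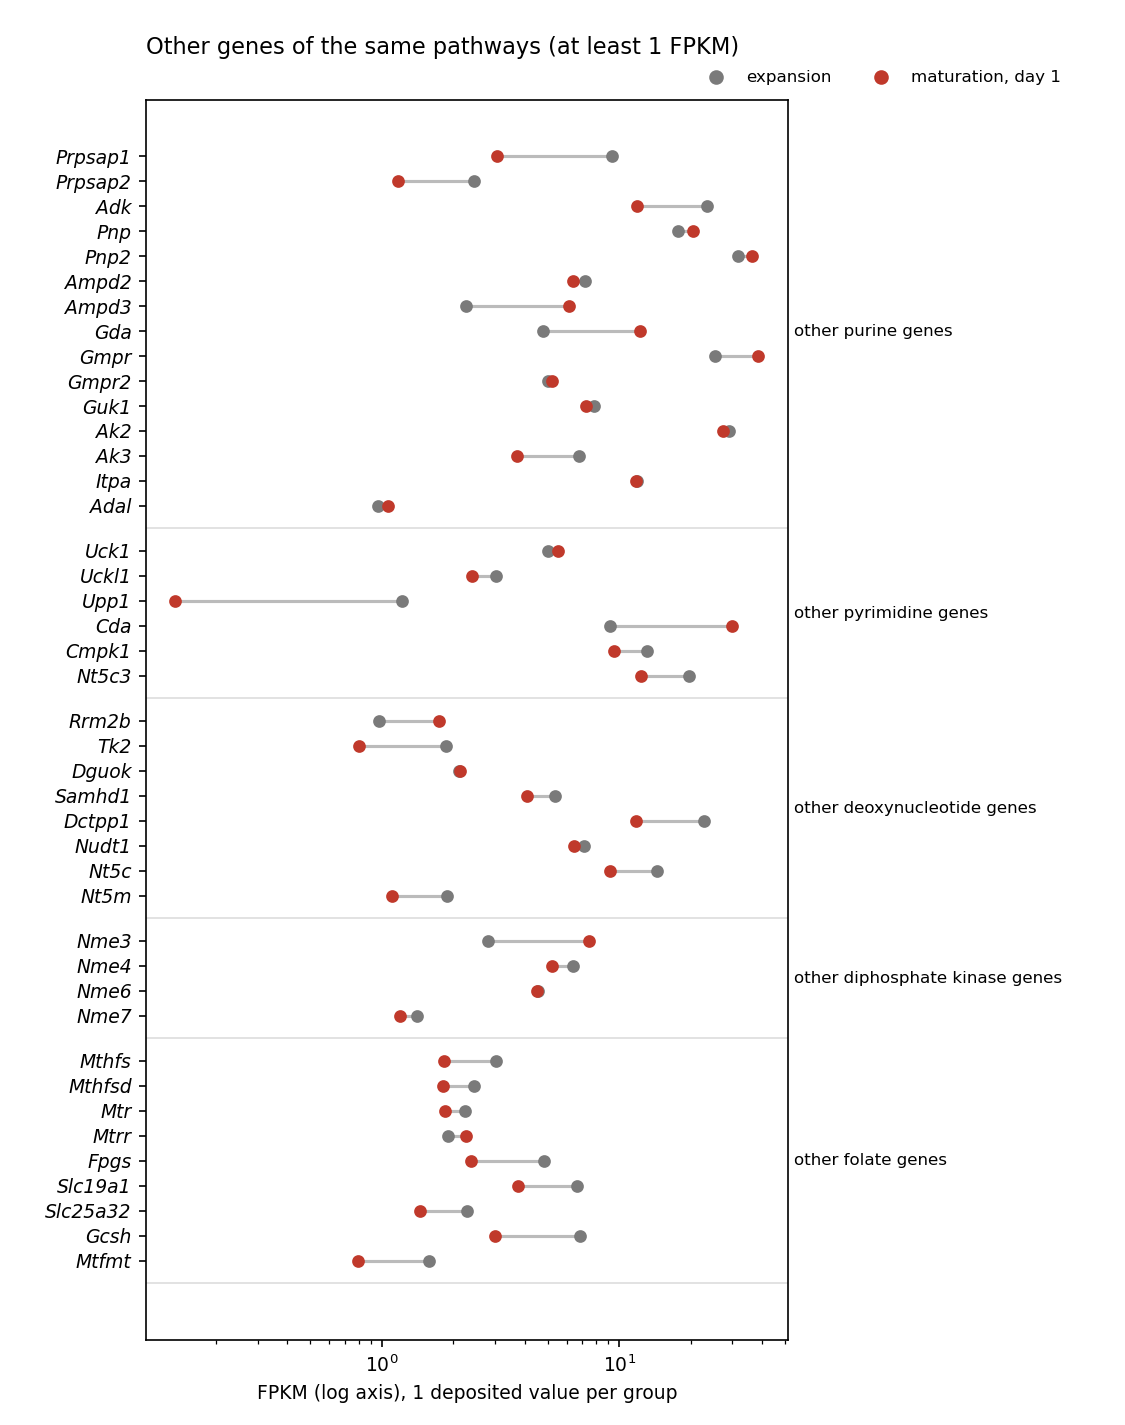
FPKM (log axis) of the 42 expressed genes of the same pathways outside the 36, in expansion (grey) and after 1 day of maturation (red), 1 deposited value per point and no error. Red points lie furthest to the right of grey for Cda (9.16 and 29.8), and furthest to the left for Upp1 (1.22 and 0.135) and Prpsap1 (9.33 and 3.06).

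The label of the cells was checked against their markers. All 12 erythroid markers were expressed, led by Hba-a1 at 1951 and 8370 FPKM, Hba-a2 at 1929 and 8276 FPKM and Hbb-b1 at 1059 and 4739 FPKM. These 12 summed to 5039 FPKM in expansion against 21625 in maturation, a sum that is nearly all globin. Of the 12, 11 stood higher in maturation, beside 25.9% of all expressed rows. Kit, a receptor of early erythroid cells, stood lower at 16.8 and 1.40 FPKM. No granulocyte (6), lymphocyte (5) or hepatocyte (4) marker reached 1 FPKM, and of 5 macrophage markers 1 did. Of 7 mast cell and basophil markers 5 were expressed, with summed FPKM of 31.8 in expansion and 3.26 in maturation. All 5 stood at least 2-fold lower in maturation, beside 6.70% of all expressed rows. Il1rl1 was at 8.92 and 1.64 FPKM, Gata2 at 7.20 and 0.824 FPKM and Ms4a2 at 7.07 and 0.0903 FPKM. Mcpt8 was listed at 0 in both groups and Cpa3 at 0.107 and 0. Of 7 megakaryocyte and platelet markers 4 were expressed, with sums of 22.8 and 4.13. Of these 4, 3 stood at least 2-fold lower in maturation, beside 6.70% of all expressed rows. They were Gp5 at 9.63 and 0.438 FPKM, Gp1ba at 7.22 and 0.845 FPKM and Itga2b at 5.15 and 0.996 FPKM. Gp9 stood higher at 0.756 and 1.84 FPKM, and Pf4 was at 0.0333 and 0. The part of such cells in the differences above was not tested.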

How the data were processed

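The authors deposited a table of FPKM values, with a single column for each group, per the file headers. The submitters' processing notes name Cuffdiff 2.0.2 and mm9. RNA was extracted with a Qiagen kit and libraries were made with a Bioo Scientific kit, per the labels' protocols. Not given in the sources used here: aligner, annotation, read length, strand, depth and how duplicates were combined. Some values above 0 lay under 0.0001, the smallest at 9.43e-07 in expansion and 9.73e-07 in maturation. Whether low values fall into steps of whole reads was not tested.

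Folds, log2 ratios with a pseudocount of 1, counts past 2-fold and medians were computed in Python 3.11.15. The log2 ratio and the 2-fold call were run on simulated pairs without noise, changed by fixed folds in rows of high level only. That run changed no low row and did not cover the gene lists, motifs or shared stretches. Rows under 1 FPKM in both groups were left out of counts. With 1 value per group no test was made. The 36 genes, their roles and the other lists were chosen with earlier results of these data known. All 36 genes are named, as are the 3 largest log2 ratios of each further pathway list and 5 fixed genes (Rrm2b, Pnp, Nt5c3, Ampd3, Slc19a1), the 2 largest of each comparison list and the 3 highest markers. A further gene of the naming rule is not reported here and was left out of its list. Genes at 0 or near 0, Gldc, Dguok, Kit and the rows of copies or shared loci were added after their values were seen. So were the named mast cell, basophil, megakaryocyte and platelet markers. Of 198 list entries 190 were found by symbol and 6 through RefSeq synonyms, while 2 had no match. Starts were read as counted from 0, since 190 of 315 microRNA spans then equalled their RefSeq length and 0 otherwise, and are printed counted from 1. Shared 36-base and 75-base stretches were counted in GENCODE M21 transcripts of genes at other loci. The alternatives were other pseudocounts, filters, scalings and fold limits.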

Additional observations from a re-analysis of the deposited data

How the results depend on the processing

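With no replicate spread, a log2 value was taken as stable within 0.1 and a count within 1.5 times. The number of genes at least 2-fold higher was 4 as reported and 1 with a pseudocount of 5. The number at least 2-fold lower was 2 as reported, 1 with a pseudocount of 5, 1 among genes of at least 5 FPKM, 1 after centring, 1 with equal summed FPKM without small RNA rows, and 9 at 1.5-fold. The median over the 34 genes was -0.22, and became 0.031 after centring and -0.10 with equal summed FPKM without small RNA rows. The deoxynucleotide median of 0.84 was 0.62 with a pseudocount of 5, 1.03 at a minimum of 5 FPKM, 1.09 after centring and 0.95 with equal sums. The median outside deoxynucleotide supply, -0.28, was -0.029 after centring and -0.17 with equal sums. No gene past 2-fold changed sign under these alternatives. Of the 34 genes, 4 changed sign after centring and 1 with equal sums, all within 2-fold. No paired analysis was possible because each group has 1 deposited value, and no replicate could be left out. The unknown depth limits the low genes most, Ctps2, Ada and Dctd among them.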
